A study of Mus musculus with 6 samples.

Results

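Th2-like cells of tumor T cells were defined here by their cytokine transcripts: at least 2 UMIs summed over Il4, Il5 and Il13, and 0 UMIs of Cd8a, Cd8b1, Foxp3 and Ifng. A UMI is a molecular tag that counts 1 captured transcript. The rule found 242 such cells among 12818, or 1.89% of the pool (95% exact binomial interval 1.66 to 2.14%, covering counting error only). They carried 3.56% of all UMIs and 72.9% of the pool's UMIs of the 3 cytokines. Because these 3 genes chose the cells, their levels are given as a description, and Gata3 serves as the marker that the rule did not use.

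The cells came from B16-F10 melanomas, a transplantable mouse skin tumor line, grown under the skin of Foxp3-EGFP-DTR mice. These animals carry the diphtheria toxin receptor and EGFP at the Foxp3 gene, so that diphtheria toxin (DTx) kills their regulatory T (Treg) cells. TCRβ+ cells were sorted from tumors of 3 samples given PBS and 3 given DTx, all of the same genotype, and read by droplet sequencing of transcript 5′ ends. The labels give neither the age of the animals nor whether each sample was a separate mouse. The deposited table joins 6 libraries, told apart by a suffix of 1 to 6 on the cell barcode, and no source used here links a suffix to PBS or DTx. No treatment comparison was therefore made. A pool without such a map is 1 sample, so no p-values are given, and libraries serve only to show how far a value depends on where the cells came from.

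Th2 cells are the CD4+ helper T cells of type 2 immunity, known for responses to worms and allergens. Their cytokines act on different targets: IL-4 on B cells and on T cells themselves, IL-5 on eosinophils, and IL-13 on epithelium and macrophages. GATA3 is the transcription factor that opens the cytokine locus and holds the Th2 state, while T-bet drives the opposing Th1 state and IFN-γ. In tumors Th2 cells are a minor helper population.

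The 3 cytokine genes lie together on chromosome 11 (GRCm38), with Kif3a beyond the 3′ end of Il4 and the DNA repair gene Rad50 between Il13 and Il5. Il4 (ENSMUSG00000000869) spans 53602982 to 53618669 on the minus strand, Il13 (ENSMUSG00000020383) spans 53631324 to 53634702 on the minus strand, and Il5 (ENSMUSG00000036117) spans 53720794 to 53725106 on the plus strand. The whole cluster covers 122.125 kb, with 12.654 kb between Il4 and Il13 and 86.091 kb between Il13 and Il5. Gata3 (ENSMUSG00000015619) lies apart, on chromosome 2 at 9857078 to 9890034 on the minus strand.

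The 250 bases before each cytokine gene's start are shown because these genes define the cells and are the ones found together or apart in the cells below. Sequences are RefSeq windows of GRCm38.p6, read 5′ to 3′ on the gene's own strand, at chr11:53618666-53618915 for Il4, chr11:53634703-53634952 for Il13 and chr11:53720544-53720793 for Il5. Capitals mark a GATA motif (NGATAN, with A or T as its first letter and A or G as its last) or the NFAT-type core GGAAA, on either strand, with no overlap between them.
Il4: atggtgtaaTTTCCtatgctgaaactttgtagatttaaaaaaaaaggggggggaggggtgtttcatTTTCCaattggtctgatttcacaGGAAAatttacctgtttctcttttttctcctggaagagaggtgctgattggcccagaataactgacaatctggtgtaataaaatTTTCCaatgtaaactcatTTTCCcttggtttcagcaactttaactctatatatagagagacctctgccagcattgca
Il13: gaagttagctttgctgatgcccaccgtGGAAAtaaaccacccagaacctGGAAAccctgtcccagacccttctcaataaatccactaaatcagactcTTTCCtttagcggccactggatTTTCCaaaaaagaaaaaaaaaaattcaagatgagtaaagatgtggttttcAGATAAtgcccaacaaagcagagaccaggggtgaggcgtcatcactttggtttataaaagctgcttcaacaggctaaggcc
Il5: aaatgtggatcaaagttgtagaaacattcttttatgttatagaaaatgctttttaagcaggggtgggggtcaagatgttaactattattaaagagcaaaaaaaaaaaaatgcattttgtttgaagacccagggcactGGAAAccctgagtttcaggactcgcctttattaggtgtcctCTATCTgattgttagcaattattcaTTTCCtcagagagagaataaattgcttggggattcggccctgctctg
The Il4 window, the nearer of 2 in the table, ends 4 bases inside the annotated gene. It held 0 GATA matches and 5 GGAAA matches. The Il13 window held 1 GATA match, from 81 to 76 bases before the start, with 4 GGAAA matches. The Il5 window held 1 GATA match, read on the other strand from 72 to 67 bases before the start, with 2 GGAAA matches. Of 32851 RefSeq windows of the same length, 26.5% held a GATA match and 55.6% a GGAAA match, and a match here describes the letters, not a site that is bound.

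Th2-like cells were unevenly spread over the libraries. Library 4 held 123 of them, library 5 held 52 and library 6 held 53, while libraries 1, 2 and 3 held 4, 2 and 8. As a share of all cells in the library this was 6.96% (5.82 to 8.24) in library 4, 2.62% (1.96 to 3.42) in library 5 and 2.61% (1.96 to 3.40) in library 6. Shares in libraries 1, 2 and 3 were 0.188%, 0.0758% and 0.353%. The share in library 4 lay above the intervals of all other libraries, and the pooled share without library 4 was 1.08%.

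**Figure D1:**
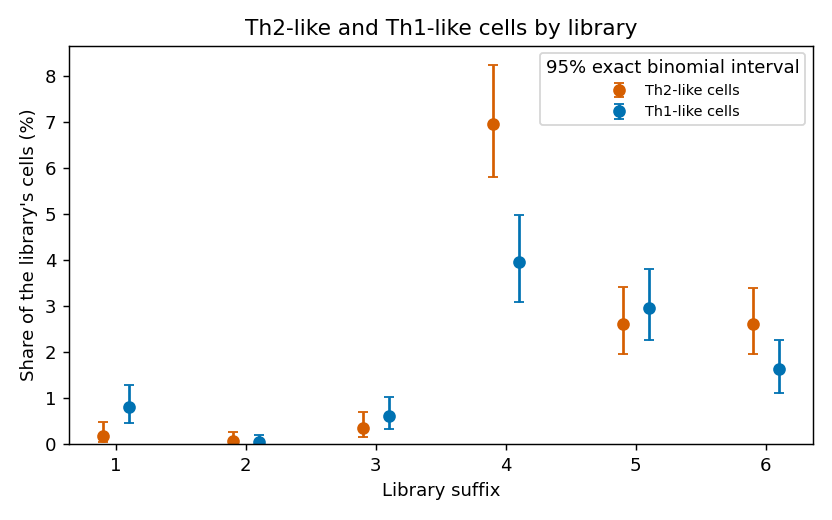
Share of each library's cells (y axis, percent) that were Th2-like or Th1-like, by library suffix (x axis), with 95% exact binomial intervals. Th2-like cells made up 6.96% of library 4, and at most 0.353% of each of libraries 1 to 3.

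Libraries 4 to 6, which held most of the Th2-like cells, were also the most deeply read. The median cell had 2499.5 UMIs in library 4 and 610 in library 3, and Th2-like cells themselves had a median of 2633.5 UMIs against 1250.5 over all cells. With every cell thinned to 1000 UMIs the share of Th2-like cells was 1.60%. The libraries shared 76 barcodes, 1 of them that of a Th2-like cell, and differed from each other well beyond sampling noise, with a chi-square per degree of freedom of at least 2.90 in every pair. Among 4497 CD8+ T cells, which should make little of these cytokines, 34 (0.756%, 0.524 to 1.05) had at least 2 cytokine UMIs, at a median depth of 1708 UMIs. In library 4 this share was 1.81% (15 of 827 cells, 1.02 to 2.97), and in libraries 5 and 6 it was 0.806% and 0.898%.

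Il4 was the cytokine found in most cells. Il4 gave 878 UMIs in 190 cells (78.5%), Il13 gave 946 UMIs in 122 cells (50.4%) and Il5 gave 387 UMIs in 65 cells (26.9%). Il13 outnumbered Il4 in libraries 4 (667 against 480 UMIs) and 5 (197 against 168), whereas in library 6 Il4 led with 210 UMIs against 79. Levels were very unequal between cells. The median cell had 4 UMIs over the 3 genes and the highest had 133, and the 54 cells with 10 or more held 69.2% of the 2211 cytokine UMIs. The highest count in 1 cell was 76 for Il4, 60 for Il5 and 70 for Il13.

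Il4 alone was the most common combination, in 104 cells (43.0%). Il4 with Il13 followed with 53 cells, and 27 cells had all 3 genes. Il5 with Il13 was found in 22 cells, Il13 alone in 20, Il5 alone in 10 and Il4 with Il5 in 6. Cells with all 3 genes were also those with most transcripts, with a median of 23 cytokine UMIs against 3 in Il4-only cells, and were read more deeply, with a median of 3942 total UMIs against 2131. The combinations differed by library. In library 4 a UMI of Il4 was found in 73.2%, of Il5 in 33.3% and of Il13 in 60.2% of Th2-like cells. In library 6 the shares were 86.8%, 13.2% and 41.5%, and in library 5 they were 88.5%, 19.2% and 46.2%. The 8 cells of library 3 had Il5 in 7 of them and Il13 in 0. They were 0.489% of the 1636 cells there without Cd8a, Cd8b1, Foxp3 or Ifng UMIs. Among CD8+ T cells of library 3, 3 of 402 (0.746%) had at least 2 cytokine UMIs. The intervals overlapped, at 0.211 to 0.961% and 0.154 to 2.17%. Median depths also differed, at 562 UMIs and 884.5 UMIs in the CD8+ T cells. With 3 CD8+ cells the 2 shares could not be told apart.

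**Figure D2:**
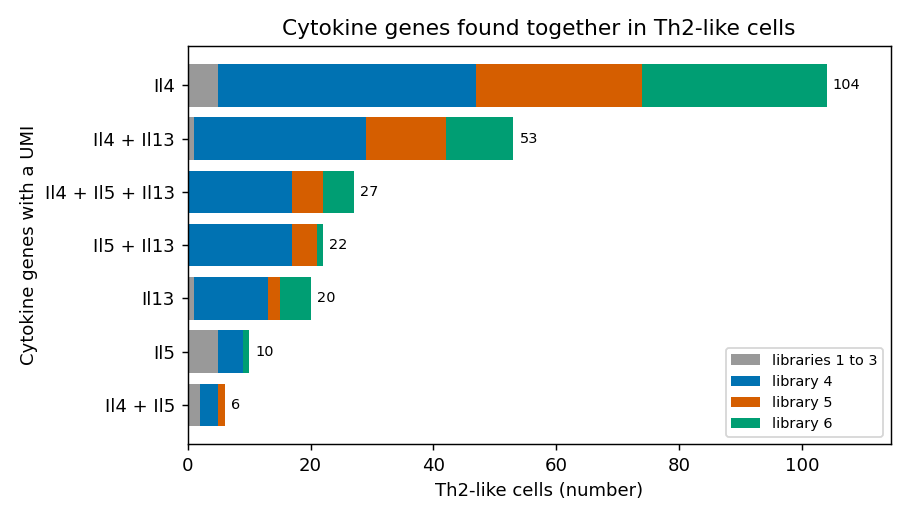
Number of Th2-like cells (x axis) with each combination of cytokine genes (y axis), colored by library. Il4 alone led with 104 cells, and the 10 cells with Il5 alone included 5 from libraries 1 to 3.

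Just outside the rule, 176 cells had exactly 1 cytokine UMI, and just inside it 83 cells had exactly 2. Gata3 stood at 6.41 UMIs per 10000 UMIs outside and 5.73 inside, and Il1rl1 at 1.92 outside and 0.940 inside. Cells just outside the threshold thus had levels of both genes that were no lower than those just inside it. A Cd4 UMI was found in 79 of the 242 cells (32.6%), while cells of the same library and depth without cytokine UMIs, under the same bars on Cd8a, Cd8b1, Foxp3 and Ifng, gave 79.3 expected cells. Of the 242 cells, 240 had a UMI of at least 1 of 10 genes listed as αβ T cell markers. The list includes Cd247, which is not an αβ receptor chain, so such a UMI alone does not show an αβ receptor.

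To see what else these cells expressed, they were set against 1063 CD4+ cells with at least 1 Cd4 UMI, no UMI of Cd8a, Cd8b1 or Foxp3 and none of the 3 cytokines. For each gene the UMIs found in Th2-like cells were divided by the UMIs expected from the comparison cells of the same library and depth quartile, which used 911 of the comparison cells. Of 6205 genes with at least 20 UMIs found plus expected, 273 (4.40%) were at least 2-fold higher and 279 (4.50%) at least 2-fold lower. The median over all genes was -0.05 on the log2 scale. The rule barred Ifng in Th2-like cells but not in comparison cells. Against comparison cells without Ifng UMIs, of which 573 were used, 212 of the 273 higher genes were called again. Of the 279 lower genes, 173 were. Without library 4, 84 of 3472 genes (2.42%) were at least 2-fold higher and 98 (2.82%) lower. Of the 273 higher genes, 48 were called again without it, as were 39 of the 279 lower ones. Values without library 4 are therefore given below where they end a 2-fold difference or move a ratio by over 1.5 times. Those that rest on under 20 UMIs found plus expected are numbers only, and no 2-fold difference is read from them. A gene that is rare in comparison cells reaches the UMI minimum through the Th2-like cells, so that counts over a gene list are descriptions of the genes that reached it.

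Gata3 was higher in Th2-like cells in every library that could be compared. Th2-like cells had 5.54, 5.22 and 6.98 Gata3 UMIs per 10000 UMIs in libraries 4, 5 and 6, and comparison cells had 1.81, 2.65 and 2.96. The Th2-like level was above every comparison level. In all, 437 Gata3 UMIs were found where 166 were expected, a ratio of 2.63 (95% counting interval 2.23 to 3.10) and a log2 ratio of 1.39, or 1.09 without library 4 and 1.09 against comparison cells without Ifng. A Gata3 UMI was found in 171 of 242 cells (70.7%) where 95.4 cells were expected. Thinned to 1000 UMIs, 42.9% of Th2-like cells (36.3 to 49.6) had one, against 17.4% of comparison cells (14.8 to 20.2), 14.9% of Th1-like cells and 6.02% of CD8+ T cells. Before thinning those shares were 70.7%, 24.9%, 28.4% and 12.8%. Thinning left out 18 Th2-like, 291 comparison, 19 Th1-like and 762 CD8+ cells that were shallower.

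Gata3 aside, few of the other Th2 transcription factors and signaling genes stood apart. Of 19 listed genes that passed the UMI minimum, of 20 in the list, 5 were at least 2-fold higher and 0 lower, with a median log2 ratio of 0.39. Besides Gata3 these were Pparg, the fatty acid-sensing nuclear receptor (30 UMIs found against 1.81 expected), Rbpj, the DNA-binding partner of Notch (log2 1.39), Nfil3, a basic leucine zipper factor (1.18), and Ecm1, a secreted matrix protein (1.99). Outside library 4 Pparg had 10 UMIs against 1.06 expected, too few for a call. Without library 4, Rbpj came to 0.63, Nfil3 to 0.52 and Ecm1 to 1.02, and of 11 genes above the minimum Gata3 was the 1 gene at least 2-fold higher. Stat6, which carries the IL-4 signal, had a ratio of 1.26 (0.739 to 2.14), Irf4 of 1.09 (0.679 to 1.74) and Maf of 1.31 (1.05 to 1.63). Junb, an AP-1 subunit that Th2 cells use at the Il4 gene, was abundant, with 2559 UMIs against 1473 expected (ratio 1.74, 1.64 to 1.84).

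**Figure D3:**
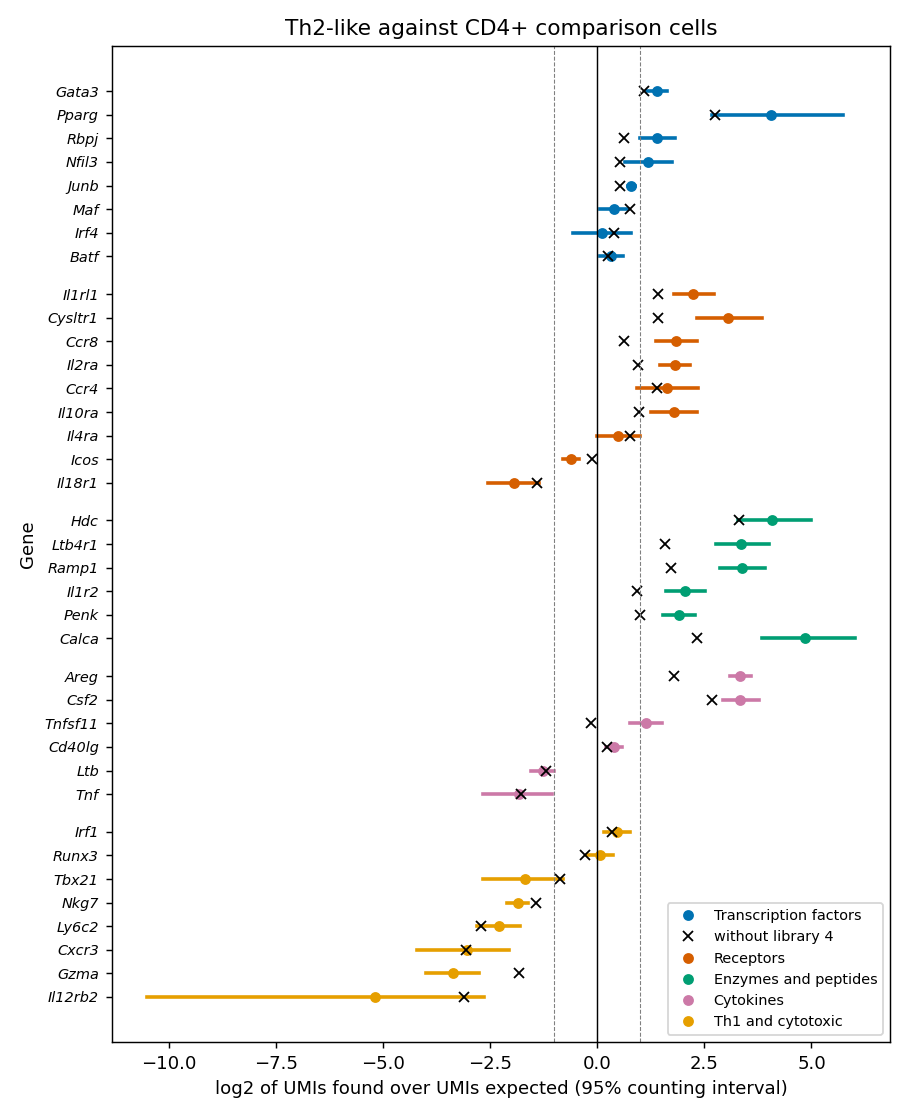
Log2 of UMIs found over UMIs expected (x axis) in Th2-like against CD4+ comparison cells for genes of 5 roles (y axis); dots are all libraries with 95% counting intervals, crosses are values without library 4 (with a pseudocount of 0.5), and dashed lines mark 2-fold. Crosses of Gata3, Il1rl1, Cysltr1, Ccr4, Hdc, Ltb4r1, Ramp1, Areg and Csf2 stay right of the 2-fold line, and those of Pparg and Calca rest on under 20 UMIs. Crosses of Ccr8 (0.62), Tnfsf11 (-0.16), Rbpj, Nfil3, Il2ra, Il10ra, Il1r2 and Penk fall left of that line although their dots lie right of it.

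Receptors for alarmins, chemokines and cytokines included many higher genes. Of 15 tested Th2 receptor and surface genes, of 20 in the list, 8 were at least 2-fold higher and 1 lower, with a median log2 ratio of 1.59; without library 4 these were 3 and 1 of 12, with a median of 0.76. Il1rl1, which encodes the IL-33 receptor ST2, stood at 3.34, 1.08 and 0.896 UMIs per 10000 UMIs in Th2-like cells of libraries 4, 5 and 6, and at 0.719, 0.527 and 0.355 in comparison cells. The groups did not overlap, and 190 UMIs were found against 40.2 expected (ratio 4.73, 3.45 to 6.59; log2 2.23, and 1.41 without library 4). Cysltr1, a receptor for cysteinyl leukotrienes, gave 77 UMIs against 9.26 expected (log2 2.99, and 1.43 without library 4). Ccr4, a chemokine receptor of Th2 and Treg cells, had a log2 ratio of 1.59, and 1.40 without library 4.

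Il2ra, the high-affinity IL-2 receptor chain, stood at 4.07, 2.10 and 2.865 UMIs per 10000 UMIs in libraries 4, 5 and 6 against 0.766, 1.36 and 0.906 in comparison cells. It was higher in Th2-like cells of each library. Its log2 ratio of 1.81 came to 0.94 without library 4. Ccr8, the CCL1 receptor of Treg and activated Th2 cells, rested on library 4. It stood at 2.64 UMIs per 10000 UMIs there but at 0.480 and 0.896 in libraries 5 and 6, against 0.547, 0.479 and 0.315 in comparison cells, so that in library 5 the levels were alike. Its log2 ratio was 1.82 with library 4 and 0.62 without it. Klrg1, an inhibitory receptor of effector cells, went from 1.67 to -0.91 without library 4, Il9r from 1.99 to 0.61 and Il10ra from 1.77 to 0.98, where the values of Klrg1 and Il9r without library 4 rest on under 20 UMIs. Il18r1, a chain of the IL-18 receptor that Th1 cells carry, was lower with 30 UMIs against 115 expected (log2 -1.92, and -1.42 without library 4). Il4ra, the receptor for IL-4 and IL-13 themselves, had a ratio of 1.40 (0.993 to 1.99), and Il7r one of 1.11 (0.954 to 1.30).

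Genes for histamine, steroid and peptide synthesis and for receptors of lipid mediators and peptides were high in part of the cells. Of 9 tested genes for lipid mediators, steroids and peptides, of 15 in the list, 8 were at least 2-fold higher and 0 lower, with a median log2 ratio of 3.33; without library 4 these were 3 of 5, with a median of 1.59. This list was drawn up with earlier results of these cells in view, and Cyp11a1 and Calca reached the UMI minimum through the Th2-like cells alone, so the count supports nothing by itself. Hdc, the enzyme that makes histamine, gave 174 UMIs in 36 cells against 10.3 expected. It stood at 2.18, 3.54 and 0.896 UMIs per 10000 UMIs in libraries 4, 5 and 6 and at 0.0625, 0.0798 and 0.433 in comparison cells. The groups did not overlap, and the log2 ratio was 4.02, or 3.32 without library 4. Ltb4r1, the receptor for leukotriene B4, gave 172 UMIs in 72 cells against 16.7 expected (log2 3.33, and 1.59 without library 4). Ramp1, a subunit of the receptor for the neuropeptide CGRP, gave 193 UMIs in 66 cells against 18.6 expected (3.34, and 1.72 without library 4). Il1r2, the decoy receptor for IL-1, had a log2 ratio of 2.04, and 0.92 without library 4.

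Calca, which encodes CGRP itself, gave 93 UMIs in 23 Th2-like cells and 13 UMIs in 11 comparison cells (log2 4.64), with 15 UMIs against 2.59 expected outside library 4. Cyp11a1, the enzyme of the first step of steroid synthesis, gave 58 UMIs in 23 Th2-like cells and 3 UMIs in 2 of the 1063 comparison cells, a ratio of 51.5 (16.7 to 258.8). Outside library 4 it had 11 UMIs against 1.13 expected. Penk, the precursor of enkephalins, was concentrated in few cells: 267 UMIs came from 20 Th2-like cells and 162 from 15 comparison cells. Of the 195 Penk UMIs of library 4, 170 came from 8 cells that carried the same T cell receptor segment, Trbv13-1. The log2 ratio of Penk was 1.89, and 0.99 without library 4 and 0.65 without the 30 Th2-like cells of library 4 with that segment. At least 1 of Calca, Penk, Cyp11a1 and Hdc was found in 67 Th2-like cells (27.7%) and in 37 comparison cells (3.48%). In 28 Th2-like cells 2 or more of the 4 genes were found together, 7 of them with 3, against 1 comparison cell with 2; Th2-like cells were the deeper population.

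Areg, which encodes the epidermal growth factor family member amphiregulin, was also higher in Th2-like cells. It stood at 13.7, 5.16 and 7.61 UMIs per 10000 UMIs in Th2-like cells of libraries 4, 5 and 6 and at 1, 1.39 and 1.77 in comparison cells. The groups did not overlap. A total of 827 UMIs in 96 cells (39.7%) stood against 81.6 expected, a ratio of 10.1 (8.63 to 11.97), with a log2 ratio of 3.33, and 1.79 without library 4. Csf2, the gene for GM-CSF, gave 382 UMIs from 30 cells, 132 of them from 1 cell, against 37.7 expected (log2 3.33, and 2.68 without library 4). Its level was 4.62, 7.97 and 2.60 UMIs per 10000 UMIs against 0.250, 0.606 and 0.946.

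Il10, the suppressive cytokine, came from few cells of mainly 1 library. It gave 67 UMIs in 15 Th2-like cells, 42.4% of the pool's Il10 UMIs, and 1 UMI in the comparison cells. Of these, 62 UMIs in 13 cells were from library 4, and 14 of the 15 cells also had Il13. Il3, a growth factor of basophils and mast cells, gave 29 UMIs in 6 cells, all of library 4, where comparison cells had 0. Against the floor of 3 counts over the comparison group it was at least 23.95-fold higher. Of those 29 UMIs, 26 came from 4 of the Trbv13-1 cells. Over the whole list of other cytokine genes 6 of 14 tested, of 25 listed, were at least 2-fold higher (Il3, Il10, Il21, Csf2, Areg and Tnfsf11) and 4 lower, and without library 4 these were 2 and 3 of 9. The lower ones were Tnf (17 UMIs against 60.0 expected), Fasl (18 against 61.7), Ltb (156 against 379) and Lta (9 against 32.6), cytokines of the tumor necrosis factor family. Tnf, Ltb and Fasl were also at least 2-fold lower without library 4, while Tnfsf11 came to -0.16. Outside library 4 Lta had 6 UMIs against 10.8 expected, Il21 had 2 against 2.84 and Il10 had 5 against 0.126, too few for a call.

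Chemokine ligands were also split between higher and lower genes. Of 6 tested, of 11 listed, Cxcl2 and Cxcl3, which attract neutrophils, and Ccl1, the ligand of CCR8, were at least 2-fold higher, and Ccl4 and Ccl5, chemokines of cytotoxic and Th1 cells, were lower. Cxcl3 gave 172 UMIs in 18 Th2-like cells and 7 UMIs in 2 comparison cells, and Cxcl2 gave 134 UMIs in 18 cells and 27 UMIs in 4. Both genes were found together in 8 cells. Ccl1 gave 242 UMIs against 46.9 expected, with a log2 ratio of 2.35, but was lower in library 6 (-3.18). Ccl5 gave 126 UMIs against 654 expected (-2.37, and -2.35 without library 4). Ccl4 had a log2 ratio of -1.34, but -0.09 without library 4, while Cxcl2 went from 6.83 to 4.49, Cxcl3 from 5.84 to 3.92 and Ccl1 to 1.63. Outside library 4, Cxcl2 and Cxcl3 drew in part on the few Th2-like cells of libraries 1 to 3. Of the 134 Cxcl2 UMIs, 116 lay in libraries 4 to 6, with 108, 1 and 7 in each. Of the 172 Cxcl3 UMIs, 150 lay there, with 127, 21 and 2.

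**Figure D4:**
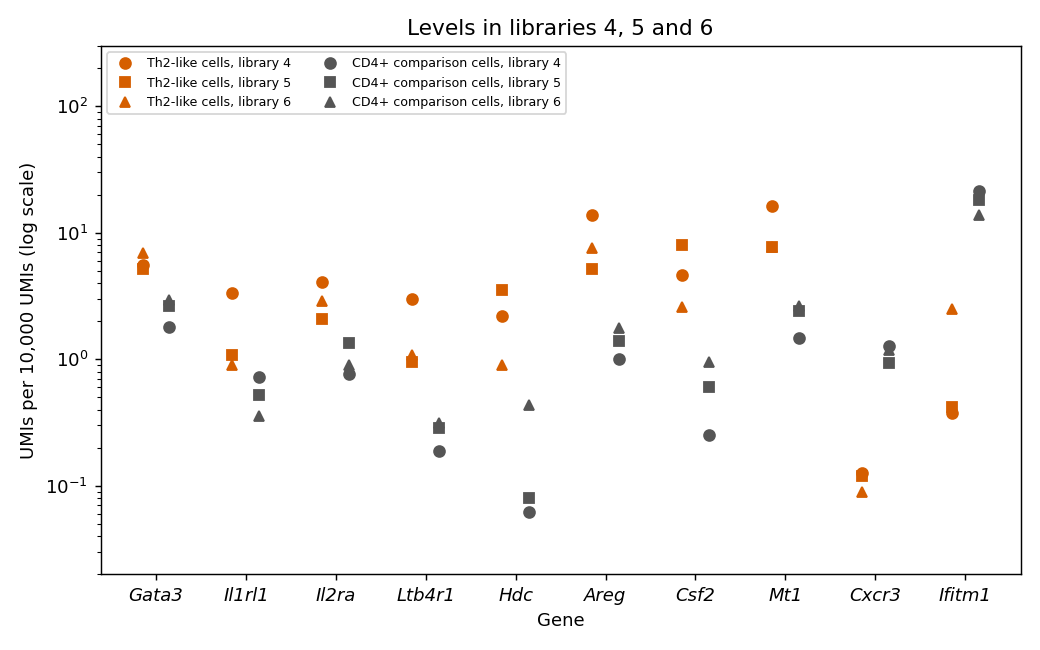
Level of 10 genes (x axis) in UMIs per 10000 UMIs (y axis, log scale) in Th2-like cells (orange) and CD4+ comparison cells (gray) of libraries 4 (circles), 5 (squares) and 6 (triangles). Gata3 to Mt1 were higher and Cxcr3 and Ifitm1 lower in Th2-like cells of each library, with Hdc at most 0.433 and Ltb4r1 at most 0.315 in comparison cells.

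The 20 genes with the highest ratios also included some of no list. Bex1, a small adaptor protein known from neurons, gave 93 UMIs in 21 cells, 74.4% of its UMIs in the pool, and 1 UMI in the comparison cells. Of the 21 cells, 19 also had Il13. Ctsh, the protease cathepsin H, gave 34 UMIs in 24 cells and 1 UMI in the comparison cells. Car7, a carbonic anhydrase, gave 53 UMIs in 8 cells, 30 of them from 1 cell, against 5 UMIs in the comparison cells. Rnf128, the ubiquitin ligase GRAIL of unresponsive T cells, gave 23 UMIs in 17 cells against 4 UMIs in 4 comparison cells. The metallothioneins, which bind zinc, were also higher: Mt2 gave 100 UMIs against 5.69 expected, Mt3 gave 47 against 5.32, and Mt1 gave 1033 against 157. Plin2, the coat of lipid droplets, gave 120 UMIs in 44 cells against 13.5 expected, and Gpt2, a mitochondrial transaminase, gave 29 against 2.56. Without library 4, 9 of the 20 highest genes reached the UMI minimum, and all 9 were at least 2-fold higher: Cxcl2, Cxcl3, Mt2 (log2 2.35), Hdc, Ramp1, Areg, Ltb4r1, Csf2 and Plin2 (2.01). The other 11 had too few UMIs for a call, with 19 UMIs found for Bex1, 11 for Mt3, 8 for Gpt2, 4 for Rnf128, 2 each for Ctsh and Car7 and 0 for Il3. The ranking took only genes with no opposite library, so the direction in libraries 5 and 6 was fixed by that choice and is not separate support. Cxcl2 reached the minimum through UMIs of libraries 1 to 3, with 1 UMI in library 5 and 7 in library 6. Mt1, singled out after its values were seen, came from 2.71 to 1.75.

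Among Th1 genes a part was lower and none at least 2-fold higher. Of 14 tested genes, of 16 in the list, 8 were at least 2-fold lower, with a median log2 ratio of -1.17 and 4 of 14 above 0; without library 4 these were 4 of 11, with a median of -0.88. The rule barred Ifng in Th2-like cells alone, and against comparison cells without Ifng the median was -0.93. Cxcr3, the chemokine receptor of Th1 cells, stood at 0.126, 0.120 and 0.0896 UMIs per 10000 UMIs in Th2-like cells of libraries 4, 5 and 6 and at 1.28, 0.941 and 1.18 in comparison cells. In these libraries the groups did not overlap. A total of 9 UMIs was found against 74.2 expected (log2 -2.98, and -3.06 without library 4). Comparison cells of libraries 1, 2 and 3 had 1.59, 0 and 1.03 Cxcr3 UMIs per 10000 UMIs. Il12rb2, the inducible chain of the IL-12 receptor, gave 1 UMI in 242 cells against 36.3 expected, of which 12.4 were expected outside library 4. Tbx21, which encodes T-bet, gave 13 UMIs against 41.7 expected (-1.64), but -0.88 without library 4 and 0.26 in library 5 alone. Irf1, Stat4, Il12rb1 and Runx3, also on the list, had ratios between 0.815 and 1.38.

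Ifitm1, an interferon-induced membrane protein, had the lowest log2 ratio of the genes ranked. It stood at 0.378, 0.420 and 2.51 UMIs per 10000 UMIs in Th2-like cells of libraries 4, 5 and 6 and at 21.4, 18.3 and 13.7 in comparison cells. In these libraries the groups did not overlap. A total of 53 UMIs was found against 1365 expected (log2 -4.67, and -3.59 without library 4). Comparison cells of libraries 1, 2 and 3 had only 0.300, 0 and 0 Ifitm1 UMIs per 10000 UMIs, below the Th2-like levels given here. Cytotoxic genes were lower with Ifitm1: 7 of 10 tested genes, of 13 listed, were at least 2-fold lower and 1 was higher, with a median of -1.56. Without library 4 these were 5 and 0 of 8. Ifng was barred in Th2-like cells alone, and the cytotoxic list was not set against comparison cells without Ifng. Gzma gave 25 UMIs against 257 expected, Nkg7 gave 171 against 620 and Ctsw gave 31 against 230, all products of cytotoxic cells. Gzmb gave 168 UMIs against 220 expected, a ratio of 0.763 (0.626 to 0.928), and Cst7, an inhibitor of granule proteases, was higher at 115 against 49.7. Klrd1 and Klrc1, the pair that forms the NK receptor CD94-NKG2A, gave 4 UMIs against 73.0 expected and 6 against 68.8. Among the 12 lowest genes were also Aspm, Ect2 and Depdc1a, which act in mitosis, with 4, 3 and 3 UMIs against 29.5, 19.3 and 19.0 expected. Hsd11b1, which activates glucocorticoids, gave 6 UMIs against 42.7 and the lipocalin Lcn4 gave 6 against 38.6. Without library 4, 6 of the 12 lowest genes reached the UMI minimum, and all 6 were at least 2-fold lower: Ifitm1, Klrd1, Klrc1, Gzma, Cxcr3 and Ctsw. Here too the ranking had fixed the direction in libraries 5 and 6. Gzma came from -3.33 to -1.83 and Klrc1 from -3.41 to -2.02. Il12rb2, Aspm, Hsd11b1, Lcn4, Ect2 and Depdc1a had too few UMIs for a call. Cst7 came to 0.91 without library 4.

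In most other programs few genes were 2-fold different. Of 16 glycolysis genes, 0 were 2-fold different, with a median of -0.06. Of 14 proliferation genes, 3 were lower (Birc5, Cdk1 and Ccna2), and 0 without library 4. Of 19 tested early genes of T cell receptor signaling, Nr4a3 and Fos were higher and Cd69 was lower. Without library 4 Nr4a3 came from 1.03 to 0.69, Fos from 1.24 to 0.82 and Cd69 from -1.16 to -0.38, and Myc alone was lower. Of 9 checkpoint receptor genes, Lag3 and Cd200 (log2 1.47) were higher, and 0 without library 4, where Lag3 came to 0.29 and Cd200 to -0.05. Ctla4 had a ratio of 1.26 (1.05 to 1.51) and Pdcd1 one of 1.15 (0.895 to 1.48), with a log2 ratio of 0.20 that came to -0.39 without library 4. Of 8 tested Treg-associated genes, Izumo1r, the folate receptor family member of Treg and unresponsive cells, was higher at 111 UMIs against 47.4 expected, and it was so without library 4. Of 10 naive and homing genes 1 was lower (Cd27), of 4 follicular helper genes 1 was higher (Tox2, log2 2.17), of 2 Th17 genes 1 was lower (Ahr), and of 8 genes of cytokine feedback 1 was higher (Socs2). None of these 4 genes was called without library 4: Socs2 came to 0.33, and Tox2 (13 UMIs found), Ahr (11, with a log2 ratio that turned from -1.01 to 0.46) and Cd27 (4) had too few UMIs. Socs1 and Ccr7 were at least 2-fold higher there and Slfn1 lower. Next to the cytokine cluster, 2 of 4 tested genes were at least 2-fold higher, Rad50 (55 UMIs against 27.0 expected) and Pdlim4 (44 against 6.27), and without library 4 these were 0 of 3, with Rad50 at 0.59 in place of 1.01 and Pdlim4 at 1.84 in place of 2.72.

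Apart from Cd74 and Gpr183, the available markers of other cells that make type 2 cytokines or could have entered the sort were scarce. Of 12 listed basophil and mast cell markers 3 were in the table, and the rest could not be assessed. Cpa3 and Kit had 0 UMIs in Th2-like cells. The 3 genes gave 2 UMIs in 2 Th2-like cells and 8 UMIs in 7 comparison cells. The 7 γδ T cell genes gave 7 UMIs in 4 cells against 18 UMIs in 15, and the melanoma genes Pmel, Mlana, Dct and Tyrp1 gave 0. Of the innate lymphoid and NK markers Ncr1, Tyrobp and Klre1 had 0 UMIs, while Gpr183, which CD4+ T cells share, gave 157 UMIs against 159 expected. Zbtb16, the factor of invariant NKT cells, gave 1 UMI. Among myeloid markers Cd68, Csf1r, Itgam and Fcgr3 had 0 UMIs, but Cd74, the invariant chain of MHC class II, gave 81 UMIs in 26 cells against 20.5 expected (log2 1.96, and 2.18 without library 4). All 8 myeloid markers together gave 92 UMIs in 27 Th2-like and 76 UMIs in 43 comparison cells. B cell markers gave 19 UMIs in 15 cells against 137 UMIs in 98, and stromal markers 1 UMI in each population. Leaving out the 42 Th2-like and 140 comparison cells with a UMI of any basophil or mast, myeloid, B cell, melanoma or stromal marker gave a median of 0.47 for the Th2 lists together, against 0.60 with them. Within the T cell genes, Cd3e, Cd3d, Cd3g and Lat had ratios between 0.861 and 1.05, while Cd247, the ζ chain of the receptor complex, was lower at 72 UMIs against 186 expected (log2 -1.37, and -1.71 without library 4).

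The Th1-like cells were the population most like the Th2-like ones in how they were chosen: 194 cells with at least 1 Cd4 UMI, at least 2 Ifng UMIs and no UMI of Cd8a, Cd8b1, Foxp3 or the 3 cytokines. They are themselves among the 1063 comparison cells, and the Th2-like cells are the same in both contrasts, so the values stand side by side and are not independent. Of 6247 genes, 386 (6.18%) were at least 2-fold higher in Th2-like cells and 579 (9.27%) lower, and without library 4 149 of 3497 (4.26%) were higher and 233 (6.66%) lower. Gata3 gave 437 UMIs against 117 expected from Th1-like cells (ratio 3.75, 2.82 to 5.08), and Il1rl1 gave 190 against 15.2 (12.5, 7.13 to 24.2). Tbx21, the Th1 factor, gave 13 against 74.8 (0.174, 0.0833 to 0.343). Without library 4 the log2 ratio of Il1rl1 was 1.37 in place of 3.61 and that of Tbx21 -1.36 in place of -2.48. Of the Th2 lists, 6 of 18 factors and 9 of 15 receptors were at least 2-fold higher, and of the lipid, steroid and peptide genes 7 of 9 were, with a median of 4.17; without library 4 these were 1 of 11, 4 of 11 and 5 of 6. Penk, Bex1, Il10, Cyp11a1, Car7 and Ctsh had 0 UMIs in the Th1-like cells. Against a floor of 3 counts over that group Penk was at least 56.2-fold higher, Bex1 at least 19.8-fold, Cyp11a1 at least 12.35-fold and Ctsh at least 7.24-fold. Cysltr1 gave 77 UMIs against 1 in Th1-like cells, and Cxcl2 134 against 1. The lowest were Cox6a2, Il12rb2, Ifitm1, Klrd1, Gzma, Klrk1, Xcl1 and Jaml, with Ifitm1 at 53 UMIs against 1868 expected and Gzma at 25 against 581, or a log2 ratio of -4.51 that came to -1.17 without library 4. Ifitm1 came from -5.13 to -4.32. Of these 16 genes Penk, Cxcl2, Ifitm1, Klrd1, Gzma and Klrk1 reached the UMI minimum without library 4, and all 6 were at least 2-fold different in the same direction. The ranking had fixed that direction in libraries 5 and 6, and Cxcl2 again reached the minimum through libraries 1 to 3. Cox6a2, a respiratory chain subunit with 10 UMIs in 3 Th1-like cells, had 0 UMIs in both populations outside library 4.

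Th2-like cells were also compared among themselves by which cytokine they carried. Those with at least 2 Il13 UMIs and no Il4 (37 cells) were set against those with at least 2 Il4 UMIs and no Il13 (106 cells), within library and within cells above or below the library's median depth. The 2 groups also differed in median depth, 3774 against 2149 UMIs. Cytokine load differed too, with a median of 9 cytokine UMIs in cells with Il5 and Il13. It was 3 in cells with Il13 alone and 3 in cells with Il4 alone. The part of load was not tested. Of 1824 genes, 100 (5.48%) were at least 2-fold higher in Il13 cells and 95 (5.21%) lower; library 4, the 1 library with at least 10 cells of both kinds, held 24 Il13 and 43 Il4 cells, and without it the sum was 47 in place of 195. Gata3 gave 66 UMIs against 81.1 expected, a ratio of 0.813 (0.590 to 1.11). Phlda1, an apoptosis-related gene, gave 188 UMIs against 26.5 (log2 2.81, and 2.75 without library 4), Plin2 gave 42 UMIs against 3 in the Il4 cells, and Igfbp7, a secreted protein, gave 31 UMIs against 4. Nrgn gave 20 UMIs in 7 Il13 cells against 0 in Il4 cells, at least 12.4-fold higher against a floor of 3 counts, and Cxcl3, Cxcl2, Bex1 and Ier3 completed the 8 highest. Of the lipid mediator, steroid and peptide genes 6 of 6 tested were at least 2-fold higher, with a median of 1.32. The receptors split: Il1rl1 was higher with 52 UMIs against 23.0 expected and Il2ra with 60 against 21.2, while Cysltr1 was lower with 6 against 22.0 and the costimulator Icos with 44 against 106. Without library 4 the log2 ratios of these 4 were 0.62 for Il1rl1, 0.76 for Il2ra, -0.52 for Cysltr1 and -0.83 for Icos. Csf2 also lay on the Il4 side, with 2 UMIs against 15.3 expected.

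The genes lowest in Il13 cells were Cd7, Gzmb, Gpr183, Suco, Cops6, Snx2, S1pr4 and Ifitm1. Cd7, a surface molecule of resting T cells, gave 2 UMIs against 24.3 expected, Gzmb, a granzyme, gave 5 against 50.2 and Gpr183, an oxysterol receptor that guides positioning in lymphoid organs, gave 9 against 49.0. Of the 8 highest and 8 lowest genes Phlda1 alone reached the UMI minimum without library 4, and the other 15 could not be called there.

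A like contrast was made between the 65 cells with and the 177 cells without an Il5 UMI, a split added after the data had been seen. Of 2945 genes, 131 (4.45%) were at least 2-fold higher with Il5 and 91 (3.09%) lower. Gata3 gave 131 UMIs against 135 expected, a ratio of 0.969 (0.779 to 1.20). The 8 highest were Car7, Irs2, Cxcl2, Lpcat3, Cpd, Cxcl3, Dgat1 and Ramp1. Dgat1, the last enzyme of triglyceride synthesis, gave 140 UMIs against 27.5 expected (log2 2.33, and 2.21 without library 4), and Ramp1 gave 131 against 26.1 (2.31, and 1.74 without library 4). Areg gave 487 UMIs against 161 expected, and 6 of 7 tested lipid mediator, steroid and peptide genes were at least 2-fold higher, with a median of 1.40. Ccr4 lay on the other side, with 10 UMIs against 22.9 expected (log2 -1.16, and -2.655 without library 4). The 8 lowest were Cd7, Ifitm1, Gpr183, Ms4a4b, Ms4a6b, Pag1, Marcksl1 and Kcnn4, with Cd7 at 1 UMI against 21.9 and Gpr183 at 13 against 56.2. The Il13 and Il5 splits use overlapping cells and are not independent of each other. Cells with Il5 were read more deeply, with a median of 3531 against 2409 UMIs. Cytokine load differed as well, with a median of 23 cytokine UMIs in cells with all 3 genes and 9 with Il5 and Il13. It was 3 with Il5 alone, 6 with Il4 and Il13 and 3 with Il4 alone. The part of load in this split was not tested. Of the 16 genes Dgat1, Ramp1 and Gpr183 (log2 -2.07, and -2.27 without library 4) reached the UMI minimum without library 4, all at least 2-fold different in the same direction, and the other 13 could not be called there.

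Across cells of libraries 4 to 6 that met the bars on Cd8a, Cd8b1, Foxp3 and Ifng, Gata3 and the activation genes followed cytokine load differently. Gata3 stood at 2.66 UMIs per 10000 UMIs in 1745 cells with no cytokine UMI, at 6.49 in the 143 cells with 1 UMI, and between 5.13 and 6.12 in the 4 bins above. It was thus as high at 1 cytokine UMI as at any load. Il2ra stood at 0.887 and 0.932 with 0 and 1 UMI and at 5.93 in the 54 cells with 10 or more, with 1.63, 2.25 and 3.32 between. Ltb4r1 went from 0.295 to 3.87 and Ccr8 from 0.375 to 3.35, although Ccr8 stood at 0.562 in the bin of 3 to 4 UMIs. Cd3e, a chain of the receptor complex, stayed between 8.08 and 10.8. Median depth moved with the bins, from 1420 UMIs at 0 cytokine UMIs to 3872 at 10 or more, and its part in these levels was not tested. Library 4 gave 45 of the 143 cells with 1 cytokine UMI and 34 of the 54 with 10 or more. In libraries 5 and 6 alone, Gata3 stood at 2.79, 6.18 and 6.21 UMIs per 10000 UMIs with 0, 1 and 10 or more cytokine UMIs. Il2ra reached 3.04 there in the 20 cells with 10 or more, in place of 5.93, Ltb4r1 1.52 in place of 3.87 and Ccr8 1.66 in place of 3.35. In the bin of 5 to 9 Il2ra was higher, at 3.80, and Ltb4r1 was nearly level from 3 UMIs on, at 1.39, 1.48 and 1.52. Below the bin of 10 or more Ccr8 was at most 0.759 in these libraries, though 17 cells made up the bin of 5 to 9.

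**Figure D5:**
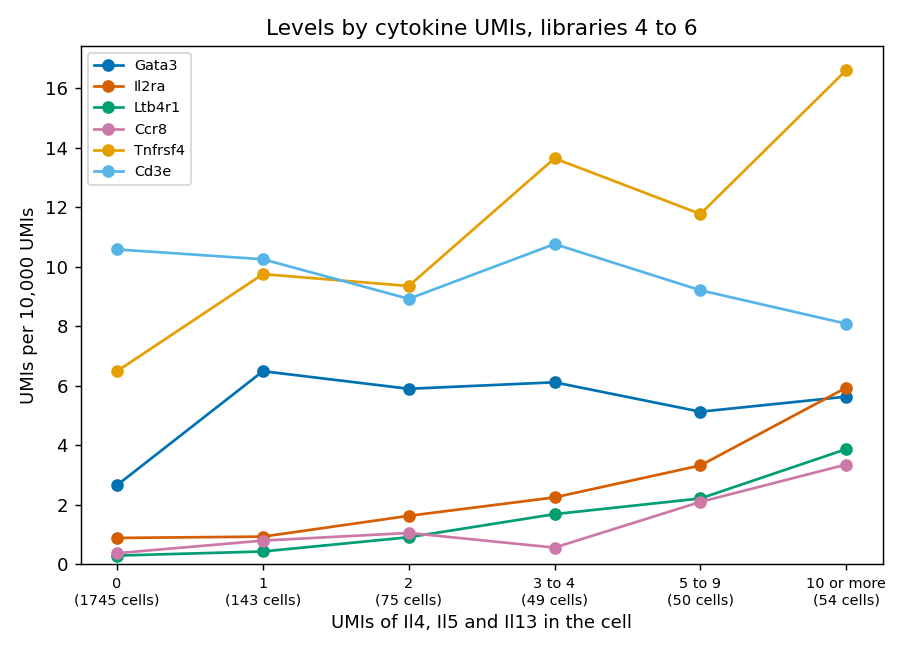
Level of 6 genes in UMIs per 10000 UMIs (y axis) in cells of libraries 4 to 6 without Cd8a, Cd8b1, Foxp3 or Ifng UMIs, by the number of Il4, Il5 and Il13 UMIs in the cell (x axis, with the number of cells). Gata3 stood near 6 from 1 UMI on, whereas Il2ra reached 5.93 in the bin of 10 or more.

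Part of library 4 shared a T cell receptor segment. Of its 102 Th2-like cells with a UMI of a β chain V segment, 30 had Trbv13-1 (29.4%, 20.8 to 39.3), against 12 of 198 comparison cells of that library (6.06%, 3.17 to 10.3). The α chain segment Trav7-4 was found in 13 of the 30 cells and in 6 of the other 93 Th2-like cells. A further β chain segment of library 4, Trbv23, was found in 15 of the 102 Th2-like cells (14.7%, 8.47 to 23.1). Among the 198 comparison cells 4 had it (2.02%, 0.553 to 5.09). No setting left out the Trbv23 cells. The most used segment of Th2-like cells was Trbv13-2 in both libraries 5 and 6, in 8 of 45 and 12 of 39 cells, against 43 of 198 and 18 of 117 comparison cells. The Trbv13-1 cells had Gata3 at 4.98 UMIs per 10000 UMIs, against 5.75 in the other Th2-like cells of library 4. They had more Penk, at 13.2 against 0.719, more Csf2, at 14.5 against 0.949, and more Il3, at 2.02 against 0.0862. The Csf2 level rested on few cells: 187 UMIs came from 3 of the 30 cells, 132 of them from 1 cell. In the other 93 cells 33 Csf2 UMIs came from 8 cells, so the share of cells with Csf2 was similar. Areg stood at 23.5 against 10.1, while Cxcl3 was at 0.544 in these cells against 3.45 in the others. Without them the pooled share of Th2-like cells was 1.66%, and the log2 ratio of Csf2 to comparison cells was 2.47. Whether the cells are 1 clone was not tested.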

How the data were processed

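The authors deposited 1 table of raw UMI counts for 14597 genes in 12818 cells, with the 6 libraries joined and told apart by a barcode suffix. Per the labels, 3 samples were given PBS and 3 DTx, and 0 columns were left unused. The submitters' processing notes name Cell Ranger, Seurat and mm9, whereas the study's methods name mm10, and gene positions given here are those of GRCm38. The authors had kept cells by number of genes and mitochondrial share, and no doublet caller was run here: cells with Cd8a, Cd8b1 or Ifng UMIs beside the cytokines are left out by the rule and described separately.

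Expected UMIs were taken from the comparison cells' share of UMIs within library and depth quartile, or above and below median depth for the smaller contrasts. Ratios carry a conditional binomial 95% interval, which covers counting error only. Log2 ratios use a pseudocount of 0.5, genes needed 20 UMIs found plus expected, and a gene at least 2-fold different was counted as higher or lower. Where a comparison group was at 0, a floor of 3 counts over the group was used. A library's direction was read only if each population had 10 or more cells in it. Named genes are the 20 highest and 12 lowest by ratio (8 and 8 in the smaller contrasts) with an interval that excludes 1 and no opposite library, plus members of 26 gene lists (319 genes). Shares of cells with a UMI were also taken after thinning to 1000 UMIs. The members, lists and contrasts were chosen with earlier results of these data known. The procedure was run on simulated counts in which every cell of a group had the same profile. Those counts varied between cells and libraries by counting error only. The run therefore could not show how the intervals hold for genes whose UMIs come from few cells. Alternatives changed the rule, the comparison cells, the UMI minimum, the pseudocount, the strata and the libraries. Python 3.11.15 with numpy 2.4.6, scipy 1.17.1, pandas 2.3.3 and matplotlib 3.10.9 was used. Some listed genes are not reported here by name.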

Additional observations from a re-analysis of the deposited data

Results flagged for a closer look

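The Th2-like rule left out cells with cytokine UMIs and markers of another T cell type, and these hold signal outside the comparisons above. There were 55 cells with at least 2 UMIs of Il4, Il5 and Il13 together with a Cd8a or Cd8b1 UMI. Of these, 21 came from library 4 and 15 each from libraries 5 and 6. They held 200 Il4, 57 Il5 and 129 Il13 UMIs. Gata3 stood at 2.91 UMIs per 10000 UMIs, against 5.62 in Th2-like cells and 0.706 in CD8+ T cells without cytokine UMIs. A Cd4 UMI was found in 21 of the 55 cells, and Gzmb stood at 9.62 UMIs per 10000 UMIs. Their median of 5012 UMIs was above that of Th2-like cells (2633.5), and the part of doublets in them was not tested.

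A further 38 cells had at least 2 cytokine UMIs and an Ifng UMI without Cd8a or Cd8b1. They held 79 Il4, 37 Il5 and 82 Il13 UMIs beside 153 Ifng UMIs, and 16 came from library 5. Gata3 stood at 3.47 UMIs per 10000 UMIs, Tbx21 gave 14 UMIs in 8 cells, and 21 cells had a Cd4 UMI. Their median depth was 4103 UMIs. The part of doublets was not tested here either.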

How the results depend on the processing

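The share of Th2-like cells (1.89%) was 3.26% with at least 1 cytokine UMI and 1.24% with at least 3, 0.616% when a Cd4 UMI was required, 1.60% after thinning and 1.66% without the Trbv13-1 cells, and 1.08 to 2.36% with 1 library left out. The count of genes at least 2-fold higher than in comparison cells (273) was 178 with a Cd4 UMI required, 441 and 129 with minimums of 10 and 50 UMIs, 1622 with no minimum, and 84 to 283 with 1 library left out. The count of lower genes (279) was 142, 565, 96, 1753 and 98 to 299 in the same order. Against Th1-like cells (965) the counts were 527, 1625, 382, 4370 and 382 to 1016. Between Il13 and Il4 cells (195) they were 101, 532, 42, 3689 and 47 to 195, and 119 without cells that had a marker UMI of another cell type. Counts hide a turnover of genes. With a Cd4 UMI required, which left 79 Th2-like cells, 119 of the 273 higher genes (43.6%) were called again. Of the 279 lower genes 72 (25.8%) were. The log2 ratio of Gata3 (1.39) was 1.09 against comparison cells without Ifng and 1.09 to 1.50 with 1 library left out. The median of the Th2 lists (0.60) and that of the Th1 list (-1.17) kept their direction under every alternative run.

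For the 32 genes ranked against comparison cells, 499 of 607 values stayed within the counting interval of the main value. Among the ranked genes of all contrasts 2 values reversed: Ifitm1 between Il13 and Il4 cells, at 2.765 with at least 1 cytokine UMI, and Kcnn4 between cells with and without Il5, which ranged from -2.53 to 0.08 with 1 library left out and stood at 0.08279 without library 4. The cause was not tested. Of genes outside the ranking, those whose log2 ratio changed sign without library 4 included Klrg1, Il21, Ahr, Cd200, Tnfsf11 and Pdcd1. No paired analysis was possible because the table does not link libraries to samples. Libraries 1 to 3 held 4, 2 and 8 Th2-like cells, too few for a ratio of their own. The split by Il5, the setting without Trbv13-1 cells and the levels by cytokine UMIs without library 4 were chosen after seeing the data.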
